A study of Mus musculus with 4 samples.

Results

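The 10 genes described here mark enteroendocrine cells, the hormone-secreting cells of the gut epithelium. They were chosen by symbol, and all 10 were found among the 53819 gene symbols of the count table. All 10 passed the filter on low counts, which left 18788 genes for testing. The members are the granins Chga and Chgb, the hormones Gcg, Pyy, Insl5, Nts, Sct and Cck, the serotonin-synthesis enzyme Tph1 and the transcription factor Neurod1. RNA was sequenced in bulk from cells labelled as primary colonic eosinophils of wild-type C57Bl/6 mice. Animals of the DSS group were given 3% dextran sulfate sodium, which damages the lining of the colon and causes colitis, and animals of the other group were given water. There were 2 libraries per group, and every title carries the tag D6, whose meaning is not stated. The sources used here do not say how the cells were isolated, how old the mice were, or whether replicates are separate mice or pools. The p-values therefore cover only library-to-library spread, part of which may be technical.

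Enteroendocrine cells are scattered singly among absorptive and goblet cells and store hormones in dense-core granules. In the colon the main kinds are L cells, which make glucagon-like peptides, peptide YY and insulin-like peptide 5, and enterochromaffin cells, which make serotonin. They sense nutrients and microbial products in the lumen, and their hormones act on appetite, insulin release, motility and secretion. The transcription factors NEUROG3 and NEUROD1 drive their differentiation from crypt progenitors.

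Library totals ran from 30985905 to 34126329 counts. The epithelial list (14 genes, among them Epcam, Krt8 and Cdh1) summed to 3832 and 9551 CPM (counts scaled to library size) in DSS replicates 1 and 2, and to 10603 and 6404 CPM in water replicates 1 and 2. Epithelial RNA was present in all 4 libraries and lowest in DSS replicate 1, the library in which immunoglobulin genes took 29.0% of counts, against 7.61% in DSS replicate 2 and 7.21% and 6.18% in water. The eosinophil list of 9 genes, by contrast, summed to 51.0 and 128 CPM in DSS and 3.62 and 29.4 CPM in water. All 9 were detected and differed among themselves. Ccr3 was the highest, at 20.2 and 66.9 CPM in DSS and 0.119 and 12.1 CPM in water, and Siglecf had 11.1 and 36.1 CPM in DSS and 0.830 and 12.2 CPM in water. Prg2 had 319 and 300 reads in DSS and 54 and 26 in water. It was the one eosinophil gene called by DESeq2 (log2 fold change 3.11, adjusted p = 6.07e-05), against 1.64% of all genes called higher. That call ended without DSS replicate 1 (DESeq2 log2 fold change 2.86). Epx, the eosinophil peroxidase gene, had 0 and 12 reads in DSS and 0 and 14 in water. Several other lists also differed between libraries. The 12 neutrophil genes summed to 1348 and 1962 CPM in DSS and 60.8 and 203 CPM in water. The 6 prostate genes summed to 0 and 0.228 CPM in DSS and 199.98 and 172 CPM in water. The 12 pancreatic acinar genes summed to 14.8 and 23.3 CPM in DSS, and to 18748 CPM in water replicate 1 against 31.9 CPM in water replicate 2. Outside water replicate 1 most of the sum was Cela1, at 10.6 and 21.2 CPM in DSS and 29.3 CPM in water replicate 2. Pnlip, Cela2a, Cela3b, Cpa1 and Ctrb1 had reads in water replicate 1 alone. The part of these other cells in the values below was not tested, except where a measurement is given.

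The sequences before the start sites of 3 members are shown because these members stand for the hormone with the largest difference (Insl5), its L-cell companion (Gcg) and the general granule marker (Chga). Each is 250 bases long and ends just before the RefSeq start site on GRCm38.p6, written 5′ to 3′ on the gene's strand. Insl5 is at chr4:103026729-103026978 (minus strand), Gcg at chr2:62483654-62483903 (minus strand) and Chga at chr12:102554691-102554940 (plus strand). Capitals mark TATAAA on the gene's strand, CAGATG (an E-box, the kind of site that NEUROD1 can bind) on either strand, and TGACGT (the core of a cyclic AMP response element) on either strand. No match overlaps another in these 3 sequences.
Insl5: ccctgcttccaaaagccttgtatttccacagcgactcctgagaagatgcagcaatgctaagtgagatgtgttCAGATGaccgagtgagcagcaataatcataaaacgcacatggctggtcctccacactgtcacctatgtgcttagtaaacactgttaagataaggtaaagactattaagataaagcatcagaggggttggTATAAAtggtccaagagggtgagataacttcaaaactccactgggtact
Gcg: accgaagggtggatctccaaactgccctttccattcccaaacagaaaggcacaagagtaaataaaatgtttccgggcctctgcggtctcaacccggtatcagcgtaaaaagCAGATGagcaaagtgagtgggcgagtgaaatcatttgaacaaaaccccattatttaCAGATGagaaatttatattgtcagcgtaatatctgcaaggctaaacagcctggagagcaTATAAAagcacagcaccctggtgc
Chga: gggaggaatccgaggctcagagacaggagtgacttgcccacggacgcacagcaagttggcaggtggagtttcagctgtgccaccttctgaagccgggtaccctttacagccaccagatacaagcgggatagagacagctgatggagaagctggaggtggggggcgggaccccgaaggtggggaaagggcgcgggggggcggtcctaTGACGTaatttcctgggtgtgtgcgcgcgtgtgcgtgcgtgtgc
RefSeq held 13 start sites for the 10 members, and a member is named below if any of its windows matched. Insl5 had another window, at chr4:103027272-103027521 (minus strand), with no match to any of these letters. TATAAA was found before Gcg, Insl5 and Sct, and in 7.59% of all 32851 windows of this length. CAGATG was found before Gcg, Insl5, Sct and Cck, and in 14.4% of all windows. TGACGT was found before Chga and Chgb (there as 2 overlapping matches, 1 on each strand), and in 6.47% of all windows. In Gcg the E-box letters began 139 and 83 bases before the start site and TATAAA 24 bases before it, while in Insl5 they began 178 and 49 bases before it. In Chga TGACGT began 44 bases before the start site. A match describes letters only and is no evidence of binding.

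The design gives 1 comparison, DSS against water. Together the 10 genes had a lower level in DSS, at a summed 159 and 121 CPM in DSS replicates 1 and 2 and 329 and 272 CPM in water replicates 1 and 2. The group means were 140 ± 27.0 CPM in DSS and 300.4 ± 40.1 CPM in water (SD, n = 2 each), a ratio of 0.467. Both DSS libraries lay below both water libraries. The sums rested on 8538 reads in DSS and 20406 in water. The mitochondrial share of counts also separated the groups, at 8.62% and 9.92% in DSS and 14.6% and 13.8% in water. With immunoglobulin and mitochondrial genes left out of the scaling, the ratio of the summed member level was 0.469. Any other part of this share in the sum was not tested. In bulk RNA, fewer enteroendocrine cells and less RNA per cell cannot be told apart. No p is given for this sum, since 2 libraries against 2 cannot give an exact two-sided permutation p below 0.333.

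Gene by gene, 9 of the 10 members had a log2 fold change (DSS over water) below 0, against 50.8% of all genes tested. Their median was -1.01, against -0.01 over all genes. edgeR's quasi-likelihood test called none of them at an adjusted p under 0.05, and over all genes it called 3 lower (0.016%) and 0 higher (0%). At an unadjusted p under 0.05 edgeR had 6 members lower and none higher, namely Chga, Chgb, Gcg, Pyy, Insl5 and Neurod1, against 3.39% of all genes lower and 5.06% higher. In the same 6 members both DSS libraries lay below both water libraries, as in 18.7% of all genes tested, and in no member did both lie above, as in 20.8% of all genes. DESeq2, run as an alternative, called 1 member lower, Insl5, against 0.89% of all genes called lower and 1.64% called higher.

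**Figure D1:**
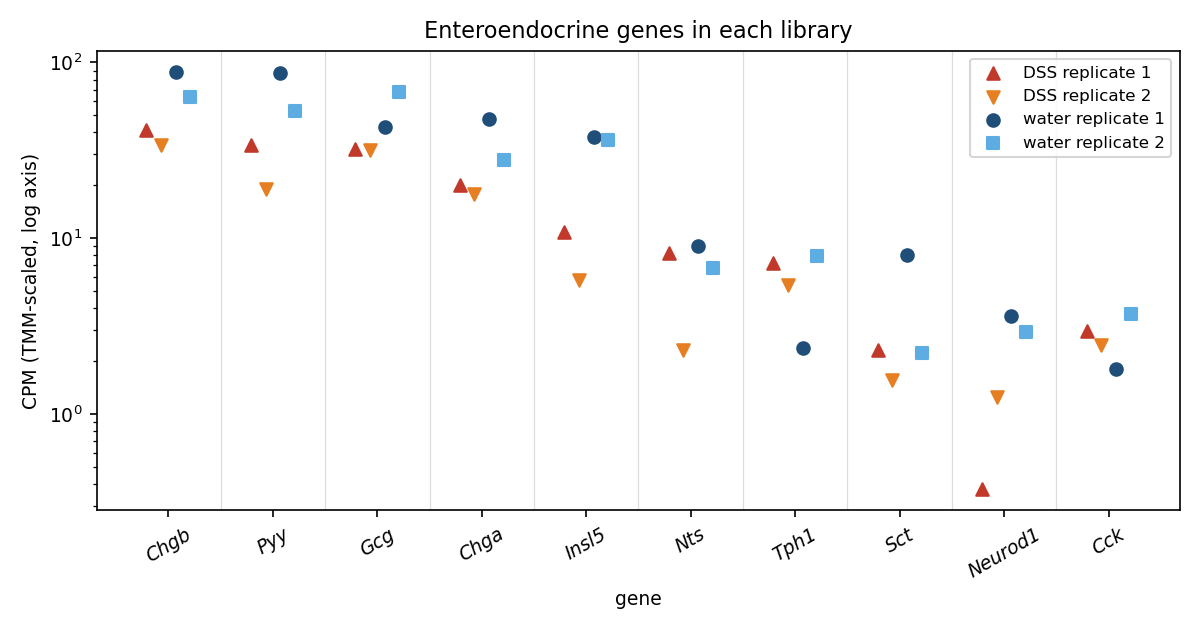
Level of each of the 10 genes in CPM (vertical log axis, TMM-scaled) in each library, DSS as triangles and water as a circle and a square. For Chgb, Pyy, Gcg, Chga, Insl5 and Neurod1 both DSS libraries lie below both water libraries; for Nts, Tph1, Sct and Cck the groups overlap.

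Chga and Chgb encode chromogranin A and secretogranin-1, acidic proteins of the dense-core granule that are shared by most enteroendocrine cell types. Chga (chromosome 12, 102554969 to 102565028, plus strand, GENCODE vM21 on GRCm38) had 20.2 and 17.8 CPM in DSS and 47.6 and 27.7 CPM in water. Chgb (chromosome 2, 132781278 to 132795079, plus strand) had 41.1 and 33.9 CPM in DSS and 88.7 and 64.0 CPM in water. Water replicate 1 was the highest library for both, and neither gene's groups overlapped. The log2 fold change was -0.99 (SE 0.34) for Chga and -1.03 (SE 0.29) for Chgb, with edgeR adjusted p of 0.537 and 0.488. The ratio of Chga to Chgb reads, which does not depend on scaling, was 0.490 and 0.525 in DSS and 0.536 and 0.433 in water. The proportion of the granins to each other thus overlapped between the groups.

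Insl5 encodes insulin-like peptide 5, a hormone of the relaxin family made by L cells of the distal colon. The gene (chromosome 4, 103017872 to 103026842, minus strand) had 10.8 and 5.75 CPM in DSS and 37.9 and 36.2 CPM in water, from 290 and 202 reads in DSS and 1279 and 1240 in water. The water libraries were close to each other, and both DSS libraries lay below them. This was a 4.49-fold lower fitted level in DSS (log2 fold change -2.17, SE 0.38, 95% interval -3.08 to -1.25), and the largest difference among the members in this fit. Scaled to the epithelial list or without DSS replicate 2, Neurod1 had the larger one (-1.79 against -1.44, and -3.12 against -1.78). edgeR did not call Insl5 (adjusted p = 0.338), and DESeq2 did (log2 fold change -2.17, SE 0.45, adjusted p = 0.000283). Leaving out water replicate 1 ended that call (DESeq2 log2 fold change of -2.14 and adjusted p of 0.0628), and leaving out any other single library kept it, with DESeq2 adjusted p from 0.000163 to 0.0294.

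Pyy and Gcg encode the other main L-cell hormone precursors. PYY gives peptide YY, which slows transit and reduces appetite, and GCG gives glucagon-like peptides 1 and 2, which promote insulin release and growth of the mucosa. Pyy (chromosome 11, 102106676 to 102107832, minus strand) had 33.9 and 19.0 CPM in DSS and 87.0 and 52.9 CPM in water (log2 fold change -1.40, SE 0.40, edgeR adjusted p = 0.490). Gcg (chromosome 2, 62474530 to 62483650, minus strand) had 32.3 and 31.6 CPM in DSS and 42.7 and 67.7 CPM in water (log2 fold change -0.79, SE 0.30, edgeR adjusted p = 0.573). The groups overlapped for neither gene, and the water libraries ranked in opposite order for Pyy and Gcg. Gcg is also made by pancreatic alpha cells, and exocrine pancreatic genes were high in water replicate 1; the part of pancreatic RNA in the Gcg level was not tested. The 8 islet genes summed to 0.521 and 0.398 CPM in DSS and 0.889 and 0.292 CPM in water, and 4 of them were at 0 in all libraries. Of the other 4, Mafa had 14 and 12 reads in DSS and 2 and 10 in water, Iapp had 0 and 2 in DSS and 18 and 0 in water, and Ins1 and Ins2 had reads in water replicate 1 alone, 2 and 8.

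Because these hormones share a cell type, their reads were also compared within each library. Insl5 reads per Gcg read were 0.334 and 0.182 in DSS and 0.887 and 0.535 in water. Insl5 reads per Pyy read were 0.318 and 0.302 in DSS and 0.436 and 0.685 in water. Neither ratio overlapped between groups, so Insl5 had a smaller share of L-cell hormone reads in both DSS libraries. Pyy reads per Gcg read did overlap, at 1.05 and 0.601 in DSS and 2.04 and 0.781 in water. Of the reads of all 10 members, Insl5 took 6.77% and 4.75% in DSS and 11.5% and 13.3% in water. Neurod1 also had a lower share in both DSS libraries, at 0.234% and 1.03% against 1.10% and 1.07% in water. Tph1 (4.51% and 4.46% in DSS, 0.721% and 2.90% in water) and Cck (1.87% and 2.04% in DSS, 0.550% and 1.36% in water) had a higher one. The shares of the other members overlapped between groups. Insl5 had the largest difference in the main fit, so its lower share is not separate evidence. These shares were not tested, for the same reason as the sum.

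**Figure D2:**
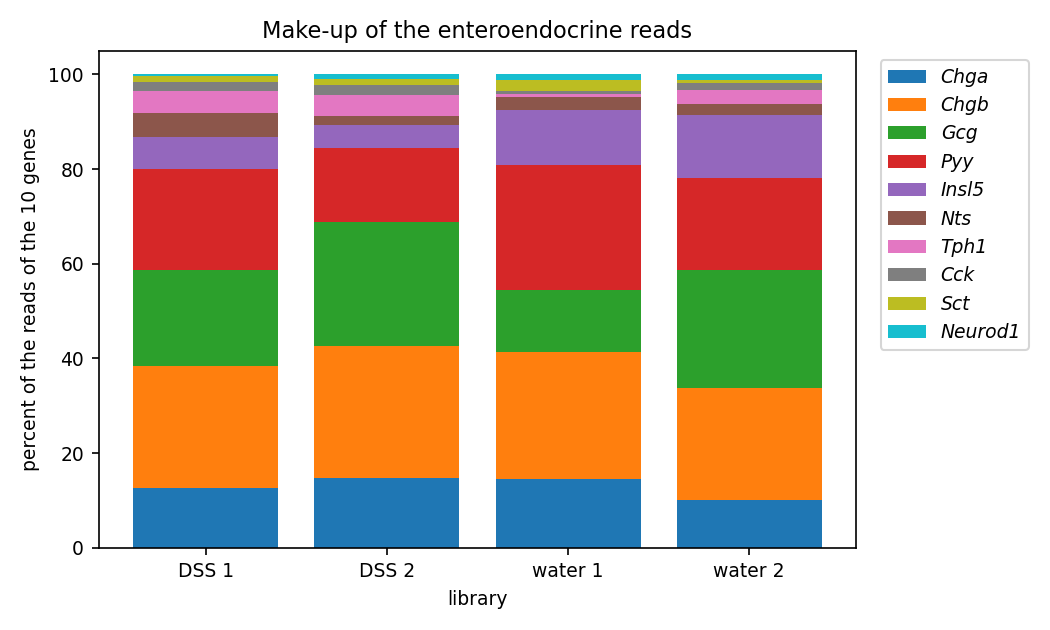
Share of each gene in the summed reads of the 10 genes (vertical axis, percent) for each library. Insl5 takes 6.77% and 4.75% in the DSS libraries and 11.5% and 13.3% in the water libraries, and Chgb takes between 23.5% and 28.0% in all 4. The shares of Neurod1 (lower in DSS), Tph1 and Cck (higher in DSS) do not overlap between groups either.

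Nts encodes neurotensin, a peptide of intestinal endocrine cells and of enteric neurons. It lies on chromosome 10 (102481756 to 102490486, minus strand) and had 8.19 and 2.31 CPM in DSS and 8.98 and 6.74 CPM in water. DSS replicate 1 lay among the water libraries, so the groups overlapped and the low mean in DSS came from replicate 2. The log2 fold change was -0.59 (SE 0.64, edgeR adjusted p = 0.868), and 0.06 without DSS replicate 2.

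Tph1 encodes tryptophan hydroxylase 1, the rate-limiting enzyme of serotonin synthesis in enterochromaffin cells, and is also expressed in mast cells. The gene (chromosome 7, 46644641 to 46672537, minus strand) had 7.18 and 5.41 CPM in DSS and 2.37 and 7.88 CPM in water. The 2 water libraries were the lowest and the highest of the 4, and the log2 fold change was 0.29 (SE 0.63, 95% interval -1.25 to 1.84, edgeR adjusted p = 0.945). It was -0.36 without water replicate 1 and 1.41 without water replicate 2. All 11 genes of the mast cell list were detected, and they summed to 537 and 480 CPM in DSS and 43.0 and 151 CPM in water. Hdc, the histidine decarboxylase gene, made up most of the sum in DSS replicate 1, with 413 and 206 CPM in DSS and 2.73 and 48.8 CPM in water. Kit made up most of it in water replicate 1, with 41.9 and 40.2 CPM in DSS and 36.9 and 37.0 CPM in water. In water replicate 1 Mcpt1, Tpsab1, Fcer1a and Ms4a2 were at 0 and the other 7 genes had reads. Their part in the Tph1 level was not tested. Tac1, the tachykinin gene of enterochromaffin cells and neurons, had 10.05 and 8.11 CPM in DSS and 12.0 and 6.69 CPM in water, also with overlap (log2 fold change -0.04, SE 0.42).

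Sct and Cck encode secretin and cholecystokinin, which act on pancreatic secretion and are made mostly in the small intestine. Sct (chromosome 7, 141278330 to 141279133, minus strand) had 2.31 and 1.57 CPM in DSS and 7.97 and 2.22 CPM in water. Water replicate 1 alone was high, and the log2 fold change of -1.40 (SE 0.73, edgeR adjusted p = 0.687) was -0.24 without it. Cck (chromosome 9, 121489824 to 121495694, minus strand) had 2.98 and 2.48 CPM in DSS and 1.81 and 3.71 CPM in water. Both DSS libraries lay between the water libraries, with a log2 fold change of -0.02 (SE 0.59, 95% interval -1.46 to 1.43, edgeR adjusted p = 0.999). This interval allows a change of more than 2-fold in either direction.

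Neurod1 encodes a basic helix-loop-helix transcription factor that acts after NEUROG3 in endocrine differentiation. The gene (chromosome 2, 79452521 to 79456751, minus strand) had 0.372 and 1.25 CPM in DSS, from 10 and 44 reads, and 3.62 and 2.92 CPM in water, from 122 and 100 reads. Both DSS libraries lay below both water libraries (log2 fold change -1.99, SE 0.77, edgeR adjusted p = 0.572). The size depended on the DSS libraries, at -1.39 without DSS replicate 1 and -3.12 without DSS replicate 2. Of its 2729 annotated exon bases, 201 overlap exons of Cerkl on the same strand and 154 overlap Gm26755 on the other strand, so part of its reads is uncertain. No exon of the other 9 members overlaps another gene.

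**Figure D3:**
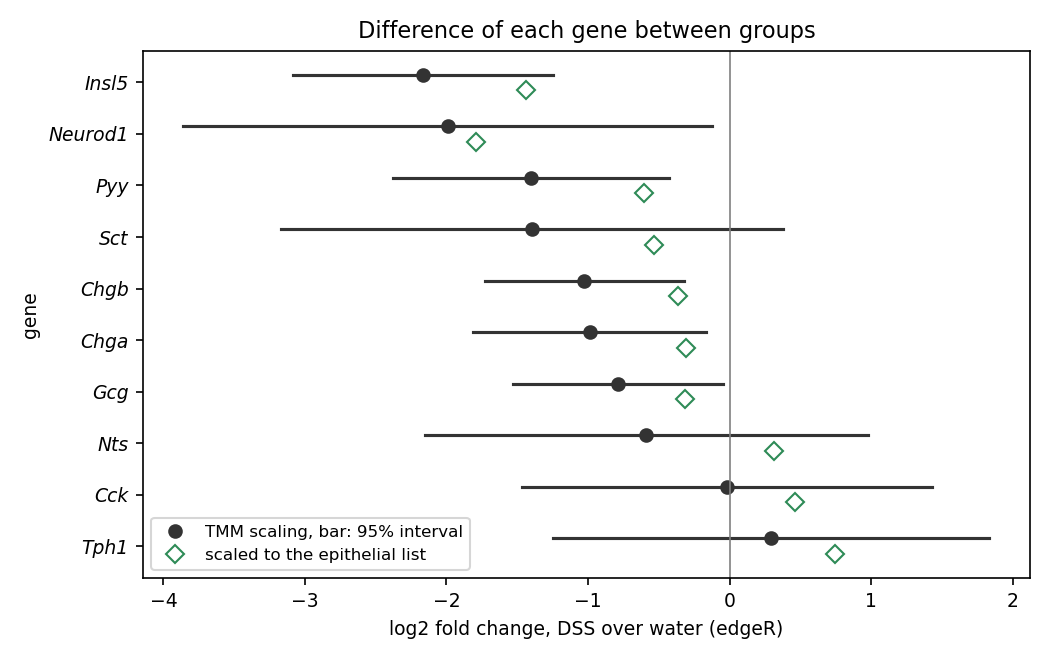
Log2 fold change of each gene, DSS over water (horizontal axis). Filled points with bars are edgeR estimates with their 95% interval under TMM scaling, and open diamonds are estimates with libraries scaled to the epithelial list, without their wider errors; Insl5 is at -2.17 and -1.44.

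Compared per length, the order of the levels changed. Pyy had the highest level per kilobase of exon in both groups, at a mean of 41.9 CPM per kb in DSS and 111 CPM per kb in water. In DSS it was followed by Gcg (21.4), Chgb (13.7) and Insl5 (11.4 CPM per kb), and in water by Insl5 (51.2), Gcg (37.0) and Chgb (27.9 CPM per kb). Within DSS, Chgb and Insl5 overlapped between libraries, at 15.01 and 12.4 CPM per kb for Chgb and 14.9 and 7.94 for Insl5. Within water, Insl5 lay above Gcg in both libraries, at 52.4 and 50.0 against 28.6 and 45.3 CPM per kb. Gcg and Chgb overlapped within water, where Chgb had 32.4 and 23.4 CPM per kb. Tph1, Cck and Neurod1 were the lowest, each with a mean of at most 2.11 CPM per kb in either group.

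Enteroendocrine RNA was also read against the epithelium it belongs to. Reads of the 10 members per 1000 reads of the epithelial list were 41.6 and 12.7 in DSS and 31.0 and 42.5 in water, so the groups overlapped. DSS replicate 1 lay between the water libraries on this measure, and DSS replicate 2 lay below them. The ratio of group means was 0.738, but leaving out DSS replicate 1 gave 0.345 and leaving out DSS replicate 2 gave 1.13. The summed CPM of the members was thus low beside a low epithelial sum in DSS replicate 1, and low beside a high epithelial sum in DSS replicate 2. Insl5 stayed apart, at 2.82 and 0.602 reads per 1000 epithelial reads in DSS and 3.58 and 5.65 in water, and so did Neurod1, at 0.0971 and 0.131 in DSS and 0.341 and 0.456 in water. The other 8 members overlapped between groups on this measure. The share of all genes that stay apart on it was not computed, so staying apart is not read as particular to Insl5 and Neurod1. The 18.7% of all genes with both DSS libraries below both water libraries was on CPM and cannot stand in for that share. With libraries scaled to the epithelial list, the log2 fold change was -1.44 (SE 0.92) for Insl5 and -1.79 (SE 1.30) for Neurod1, each with an edgeR adjusted p of 0.999. In that fit 7 of 10 members lay below 0 with a median of -0.34, against 20.7% of all genes and a median of 0.52 over all genes. None was called lower (0.104% of all genes) or had an unadjusted p under 0.05 and a lower level (0.624% of all genes).

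**Figure D4:**
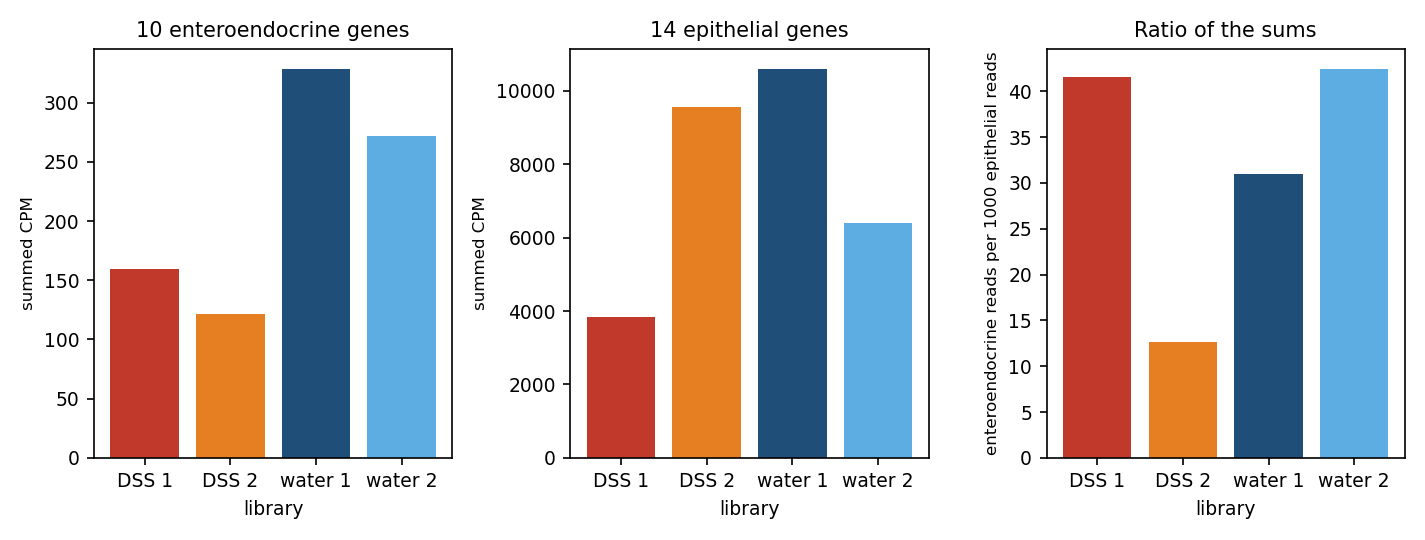
Summed CPM of the 10 enteroendocrine genes (left), summed CPM of 14 epithelial genes (middle) and reads of the first per 1000 reads of the second (right), one bar per library. The left panel separates DSS from water, while in the right panel DSS replicate 1 (41.6) lies within the range of the water libraries (31.0 and 42.5) and DSS replicate 2 (12.7) below it.

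Other lineages of the same epithelium were set beside these values. Goblet cell genes gave 260.3 and 302 reads per 1000 epithelial reads in DSS and 267 and 405 in water. Colonocyte genes gave 271 and 267 in DSS and 299 and 219 in water, and tuft cell genes 7.24 and 3.21 in DSS and 7.58 and 4.69 in water. Each of these overlapped between groups, and differences between lineages were not tested. Single genes of these lineages had differences larger than that of Insl5. Aqp8, a colonocyte water channel, had 11.1 and 8.85 CPM in DSS and 86.3 and 54.5 CPM in water, and DESeq2 called it lower (log2 fold change -2.83, adjusted p = 8.63e-09), also without each single library. Clca1, a goblet cell gene, had 19.5 and 26.2 CPM in DSS and 180.5 and 75.4 CPM in water (DESeq2 log2 fold change -2.49, adjusted p = 2.52e-05), a call that ended without water replicate 1 (-1.73, DESeq2 adjusted p = 0.0908). Median log2 fold changes were -0.54 over 8 goblet genes, -0.51 over 8 colonocyte genes and -1.52 over the 5 tuft genes tested.

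Other genes of the enteroendocrine programme mostly had log2 fold changes below 0 too. Of 12 lineage transcription factors, 11 had a log2 fold change below 0, against 50.8% of all genes (median -1.46, against -0.01 over all genes). In those 11 both DSS libraries lay below both water libraries, as in 18.7% of all genes tested. edgeR and DESeq2 called none, and 3 were lower at an unadjusted edgeR p under 0.05, against 3.39% of all genes. Pax4 had 0 reads in both DSS libraries and passed the filter through water alone, so its place among the 11 was set by the filter. Insm1, a zinc-finger factor of endocrine differentiation, had 4.32 and 1.62 CPM in DSS and 6.58 and 6.83 CPM in water. Rfx6, which acts in endocrine cells of gut and pancreas, had 1.49 and 0.740 CPM in DSS and 3.53 and 2.39 CPM in water. Atoh1, the factor of all secretory lineages, had 5.47 and 17.0 CPM in DSS and 26.6 and 33.7 CPM in water. Isl1 was the exception, at 10.7 and 11.4 CPM in DSS and 10.05 and 9.17 CPM in water (log2 fold change 0.20, SE 0.32).

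Granule and prohormone-processing genes, some of them also used by neurons and immune cells, had 16 of 20 tested members below 0. This compares with 50.8% of all genes, and the median was -0.74. edgeR called none and had 6 lower at an unadjusted p under 0.05, against 3.39% of all genes, and DESeq2 called 2 lower, the secretogranins Scg2 and Scg3, against 0.89% of all genes. Scg2 had 0.223 and 0.171 CPM in DSS and 2.79 and 1.99 CPM in water (DESeq2 log2 fold change -3.61, adjusted p = 0.0163). Scg3 had 4.32 and 2.73 CPM in DSS and 10.3 and 13.5 CPM in water (DESeq2 log2 fold change -1.76, adjusted p = 0.0356). Leaving out any single library ended both calls, while the DESeq2 log2 fold change ran from -3.82 to -3.35 for Scg2 (adjusted p from 0.125 to 0.737) and from -2.12 to -1.44 for Scg3 (adjusted p from 0.117 to 0.372). Cpe, the carboxypeptidase that trims prohormones, had 34.9 and 34.0 CPM in DSS and 58.3 and 77.3 CPM in water (log2 fold change -0.98, SE 0.26, edgeR adjusted p = 0.471). Ddc, which makes serotonin from the product of TPH1, had 5.99 and 10.2 CPM in DSS and 28.1 and 13.5 CPM in water, while Syt13 had 25.8 and 28.7 CPM in DSS and 11.7 and 29.5 CPM in water. The 12 enteric neuron genes summed to 30.3 and 26.8 CPM in DSS and 33.4 and 32.8 CPM in water. Of the 11 tested, 10 had a log2 fold change below 0 (median -0.47), against 50.8% of all genes. Elavl4, at 4 and 0 reads in DSS, passed the filter through water alone. Tubb3 went the other way, at 14.6 and 5.44 CPM in DSS and 3.29 and 3.04 CPM in water. Stmn2 had 7.37 and 6.26 CPM in DSS and 13.8 and 12.2 CPM in water. The part of neuronal RNA in the granule gene values was not tested.

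Nutrient and microbial sensors had 6 of 10 tested genes below 0, near the 50.8% of all genes. Their median was -0.38, and neither test called any. Ffar2, the short-chain fatty acid receptor, which is also expressed in granulocytes, had 11.5 and 13.3 CPM in DSS and 9.69 and 10.5 CPM in water. Olfr78, an olfactory receptor of enterochromaffin cells that responds to short-chain fatty acids, had 7.15 and 12.9 CPM in DSS and 16.9 and 18.2 CPM in water. Among hormones outside the members, Sst (somatostatin) had 2.72 and 0.882 CPM in DSS and 11.4 and 2.69 CPM in water, with water replicate 1 high as for Sct. Gip had 0 reads in all 4 libraries.

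**Figure D5:**
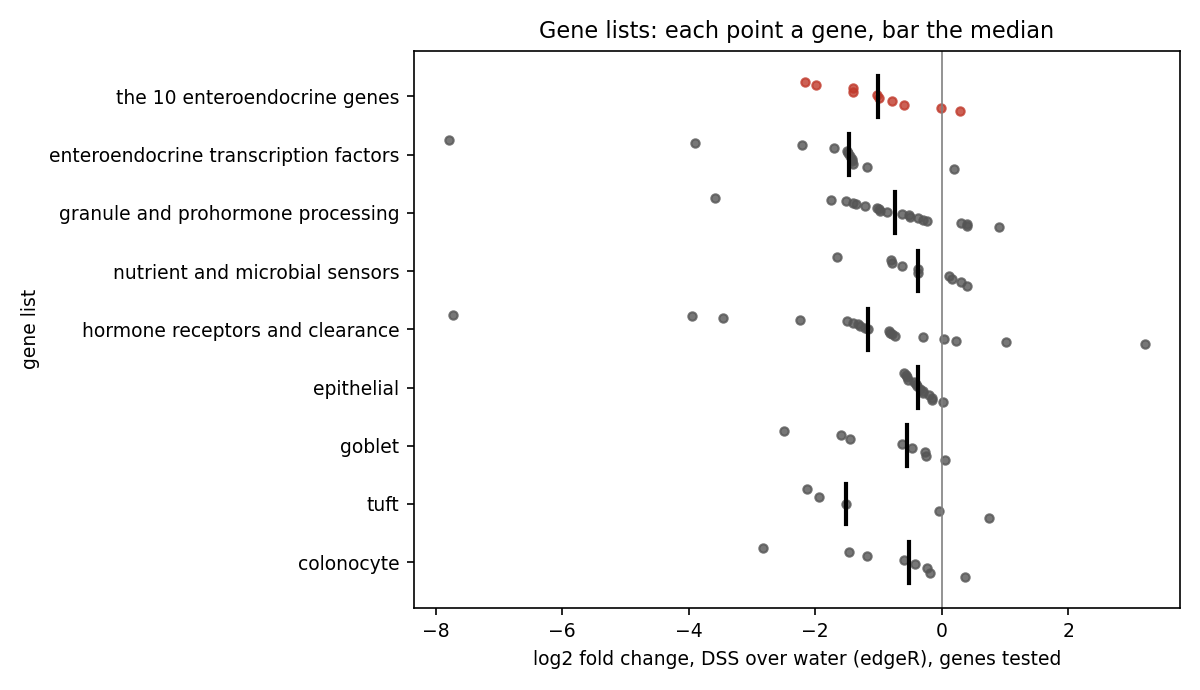
Log2 fold change, DSS over water, of every tested gene in 9 gene lists (1 point per gene, black bar the median of the list). The medians are -1.01 for the 10 enteroendocrine genes, -1.46 for the transcription factors and -0.74 for granule and prohormone-processing genes, with -0.37 for the epithelial list.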

How the data were processed

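Raw read counts per gene symbol, not normalized, were deposited by the authors as 1 table with 1 column per library. STAR, HISAT2, featureCounts, HTSeq and DESeq2, with mm10 and GRCm38, are listed in the submitters' processing notes, with neither roles nor versions; the sources used here give neither annotation nor strand setting. The labels' protocols describe poly-A selection, fragmentation and random priming. Even numbers made up 70.5% to 73.2% of counts from 1 to 10, so reads are not all independent events and no counting intervals are given.

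The main test was edgeR 4.0.16 in R 4.3.3: filterByExpr (minimum count 10, minimum total 15), TMM scaling and the robust quasi-likelihood test between the groups, with Benjamini-Hochberg adjustment over 18788 genes at a threshold of 0.05. CPM use TMM-adjusted totals. The biological coefficient of variation was 0.432. Library pairs of a group differed far beyond sampling noise, with chi-square values per degree of freedom of 309 for DSS and 136 for water. Coordinates and exon lengths come from GENCODE vM21, and start-site sequences from RefSeq GRCm38.p6; all 10 members matched. DESeq2 1.42.0, limma-voom (limma 3.58.1), other scalings and filters, single libraries left out and replicate blocks were alternatives. Scripts were tested on simulated data.

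Members, lists and alternatives were chosen with earlier results of these data known. Named genes are all 10 members, the genes of each other list called by edgeR or DESeq2, the 4 of each list with the highest mean CPM, and the 5 genes most like Chga; not all are described. Cdh1, Epx, Tpsab1, Ms4a2, Gip, Pax4, Ntsr1 and Rxfp4 fall outside this rule and were chosen after their values were seen.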

Additional observations from a re-analysis of the deposited data

How the results depend on the processing

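Chga, Chgb, Gcg, Pyy, Insl5, Neurod1 and Sct kept a log2 fold change below 0 under all 19 alternatives, with values from -1.32 to -0.31 for Chga, -1.24 to -0.36 for Chgb, -1.12 to -0.31 for Gcg, -1.88 to -0.61 for Pyy, -2.70 to -1.44 for Insl5, -3.12 to -1.38 for Neurod1 and -2.04 to -0.21 for Sct. Tph1, Cck and Nts, never called, changed sign under some, and the cause was not tested. Scaled to the epithelial list, Cck stood at 0.46 and Nts at 0.31. Cck stood at 0.0536 with limma-voom, 0.0627 with the replicate block and 0.0653 with the crossed block. Without single libraries, edgeR gave -0.48 to 0.60 for Cck, -1.78 to 0.0586 for Nts and -0.36 to 1.41 for Tph1. DESeq2 without DSS replicate 2 gave 0.124 for Cck and 0.0737 for Nts, without water replicate 2 it gave 0.60 for Cck, and without water replicate 1 it gave -0.33 for Tph1.

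edgeR called 0 members, against 2 with no count filter (Insl5, adjusted p = 1.57e-06, and Pyy, adjusted p = 0.00284) and 1 with DESeq2 (Insl5). DESeq2 without single libraries, added after seeing the data, called 0 members without water replicate 1, 1 without water replicate 2 or DSS replicate 2, and 2 without DSS replicate 1 (Insl5, and Pyy at an adjusted p of 0.0375). Over all 18788 genes tested edgeR called 0 higher and 3 lower. Higher and lower calls were 62 and 20 of 19231 genes scaled to the epithelial list, and 710 and 341 of 27735 with no count filter. DESeq2 called 322 higher and 175 lower of 19669 genes, and limma-voom called 0 lower. Without single libraries edgeR called 0 to 123 higher and 3 to 73 lower, the most without water replicate 2. DESeq2 called 135 higher and 31 lower without water replicate 1, 639 and 193 without water replicate 2, 79 and 92 without DSS replicate 1, and 364 and 212 without DSS replicate 2.

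With the replicate block, 0 genes were called lower and no member was called (Insl5 log2 fold change -2.23, adjusted p = 0.423). Same-numbered libraries had deviations correlated at -0.104, so the numbers were not taken as pairs. A crossed block, added after seeing the data, called 29 genes higher, 15 lower and no member. The summed level of the members in DSS over water, 0.467, ran from 0.403 to 0.530 without single libraries, and the level per epithelial level, 0.738, from 0.345 to 1.13. At 2 libraries per group, edgeR did not call even the 4.49-fold lower fitted level of Insl5 (adjusted p = 0.338). Members not called, among them Cck, Sct and Tph1, may therefore still differ between groups.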

Other observations

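Receptors and clearance enzymes of these hormones, which act in other cells, were measured in the same libraries. Of 24 such genes 19 were tested and 15 of these had a log2 fold change below 0, against 50.8% of all genes (median -1.16, against -0.01). edgeR called none, and DESeq2 called 3 lower and 1 higher, against 0.89% and 1.64% of all genes. Ntsr1, at 0 reads in both DSS libraries and 17 and 38 in water, passed the filter through water alone. Cckar, a cholecystokinin receptor that is also expressed in exocrine pancreas, had 0.819 and 0.114 CPM in DSS and 10.2 and 3.91 CPM in water, and its DESeq2 call (log2 fold change -3.94, adjusted p = 0.000933) ended without water replicate 1 (-3.09, adjusted p = 0.559). Acinar genes were high in that library, and their part in the Cckar level was not tested. Htr4, a serotonin receptor of enteric neurons and epithelium, had 2.34 and 2.11 CPM in DSS and 14.2 and 6.89 CPM in water (DESeq2 log2 fold change -2.25, adjusted p = 0.00742), and leaving out water replicate 1, DSS replicate 1 or DSS replicate 2 ended the call (DESeq2 log2 fold changes of -1.64, -2.32 and -2.15, with adjusted p of 0.877, 0.134 and 0.114). Htr7, another serotonin receptor, stood the other way, at 10.1 and 5.83 CPM in DSS and 0.889 and 0.818 CPM in water (DESeq2 log2 fold change 3.22, adjusted p = 6.7e-05), a call lost without DSS replicate 1 (2.77, adjusted p = 0.269). Mme, the neprilysin that degrades peptide hormones, had 0.186 and 0.541 CPM in DSS and 5.01 and 3.18 CPM in water (DESeq2 log2 fold change -3.49, adjusted p = 0.00350). That call ended when water replicate 1 (-3.13, DESeq2 adjusted p of 0.518) or DSS replicate 1 (-2.92, DESeq2 adjusted p of 0.198) was left out. Neutrophil genes, at 1348 and 1962 CPM in DSS and 60.8 and 203 CPM in water, moved in the same libraries, and their part in Htr7 was not tested. Dpp4, the protease that inactivates glucagon-like peptide 1, had 28.9 and 28.4 CPM in DSS and 32.6 and 23.1 CPM in water. Rxfp4, the receptor for insulin-like peptide 5, had 0 and 2 reads in DSS and 0 in both water libraries.

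The genes whose pattern over the 4 libraries was most like that of Chga, by root-mean-square distance of centred log2(CPM + 0.5) values among 11627 genes with a mean of at least 5 CPM, were Tatdn3 (0.03), Arhgap8 (0.07), Batf2 (0.09), Repin1 (0.10) and Snrnp25 (0.11). Chgb was the closest member, 7th at 0.12, and Pyy stood at 0.33. Immunoglobulin genes and unnamed gene models were left out of this ranking. In all 98 of the 11627 genes lay within 0.2 of Chga, and how many lie that near to other genes was not computed. With 4 libraries, such likeness is not read as a shared cell type.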
